A study of Mus musculus with 7 samples.

Results

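Hepatic stellate cells were followed through 9 marker genes in the livers of mice carrying a Zfp90 transgene. Members were the probes whose gene symbol in GEO's platform annotation is exactly Acta2, Des, Lrat, Pdgfra, Pdgfrb, Reln, Dcn, Lum or Tgfb1. With 1 probe each, 8 of the 9 genes were measured, out of 16468 named genes on the array. Des, which encodes the muscle and stellate cell filament protein desmin, had no probe under its symbol and has no value here. RNA came from 3 Zfp90 transgenic mice (1 female and 2 males) and 4 wild-type littermates (1 female and 3 males). Each animal's liver RNA was read against RNA pooled from the livers of 4 wild-type mice of both sexes. The sample titles do not say whether the pool held the same 4 wild-type mice that were measured singly. The labels give Cy5 for the animal and Cy3 for the pool, and they also state that dyes were swapped in the study, so the 1 deposited column per animal may join both orientations. The sources used here do not give the promoter that drives the transgene, the tissues it is active in, the number of transgenic lines, the strain or the ages. Values are log2 ratios of an animal to the pool, so they compare animals for 1 gene and say nothing of how abundant one gene is beside another.

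Stellate cells lie between the hepatocytes and the sinusoidal endothelium, where they store vitamin A as retinyl esters. After liver injury they lose this store, respond to platelet-derived growth factor (PDGF) and transforming growth factor beta (TGF-beta), and turn into contractile cells that lay down matrix. Pdgfra and Pdgfrb encode the PDGF receptors and Tgfb1 a TGF-beta ligand. Acta2 encodes the smooth muscle actin of the contractile state, Lrat the enzyme that esterifies retinol, Reln the secreted glycoprotein reelin, and Dcn and Lum the matrix proteoglycans decorin and lumican. In whole liver, fewer stellate cells and less of a transcript per cell cannot be told apart, and several of these genes are also used by portal fibroblasts, smooth muscle or, for Tgfb1, macrophages and platelets.

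The 7 arrays had median ratios from -0.01 to 0.03 over all probes. Correlations between arrays ran from -0.497 to 0.526, with 3 of 21 pairs below -0.3. A value above 0 was taken to mean more RNA in the animal than in the pool, as the sample titles and dyes give it, and the Y-linked Kdm5d lay at -2.54 and -3.22 in the females and at 0.14 to 0.66 in the males. Zfp90 itself read 0.34, 0.58 and 0.45 in the transgenic female and the 2 transgenic males, against 0.37 in the female labelled wild type and -0.15, -0.29 and -0.11 in the wild-type males. Zfp90 did not separate the 2 females, so differences in the males alone, which leave that array out, are also given for the markers, and for other genes named by genotype where they move the value by over 1.5 times. A second fit without it, with the transgenic female kept, gives the same differences, since the sex term then takes up the lone female.

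Pdgfrb had the largest genotype difference of the 8 markers and lay higher in the transgenic livers, whereas Reln and Lum lay lower and Lrat, Pdgfra and Tgfb1 differed little. None of these differences passed the threshold of 0.05 after Benjamini-Hochberg adjustment over all 22218 features in limma, in a model with genotype and sex. The same fit called 0% of all features, and fitted in the males alone it called 0.0315% of features and 0 of the 8 markers. In the fit over all 7 animals the unadjusted p was under 0.05 for 2 of the 8 markers (Pdgfrb and Reln), where 6.91% of all features had such a value.

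The receptor Pdgfrb read 0.66 in the transgenic female and 0.26 in each transgenic male, against 0.16 in the female labelled wild type and 0.10, -0.20 and -0.11 in the wild-type males. Every transgenic animal thus lay above every wild-type animal, as in 3.17% of all features. The means were 0.39 ± 0.23 (SD, n = 3) for the transgenic group, against -0.01 ± 0.17 (SD, n = 4) for the wild type. The fitted difference was 0.38 ± 0.11 SE, or 1.30-fold higher (95% interval 0.14 to 0.63, limma adjusted p = 0.665). In the males alone the difference was 0.33 ± 0.12 SE (limma adjusted p = 0.669), and between the females it was 0.50.

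Pdgfra, the receptor found on stellate cells and other fibroblasts, showed no such separation. It read 0.17 in the transgenic female and -0.17 and -0.14 in the male carriers, against 0.42, -0.28, -0.01 and -0.18 in the wild-type female and males. Both females lay above all 5 males, and the genotypes overlapped within the males. The genotype difference was -0.07 ± 0.11 SE (95% interval -0.32 to 0.17, limma adjusted p = 0.942), and 0.00 ± 0.12 SE in the males alone.

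The 4 PDGF ligand genes also did not pass. Pdgfa, which encodes the ligand chain that binds the alpha receptor, read 0.09, 0.26 and 0.15 in transgenic animals, against -0.62 in the female labelled wild type and 0.19, 0.17 and -0.01 in the wild-type males. Its difference of 0.27 ± 0.14 SE (limma adjusted p = 0.746) came with 1 low value, that of the wild-type female array, and was 0.09 ± 0.12 SE in the males alone. Pdgfb, the ligand chain with the highest known affinity for the beta receptor, differed by 0.05 ± 0.09 SE and Pdgfd by 0.02 ± 0.10 SE, while Pdgfc differed by -0.29 ± 0.24 SE. In the males alone Pdgfd and Pdgfc differed by -0.01 and -0.11.

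Tgfb1 read 0.18, -0.15 and -0.15 in the transgenic female and males, against -0.03, -0.14, 0.19 and -0.17 in the wild-type female and males. The groups covered the same range, with a difference of -0.02 ± 0.13 SE (95% interval -0.31 to 0.28, limma adjusted p = 0.997), and of -0.11 ± 0.14 SE in the males alone. Among 21 measured genes for TGF-beta activation, receptors and SMAD signal carriers, 10 differences were positive and 11 negative, their median was -0.01, and 0 passed. The shared signal carrier Smad4 read -0.27, -0.28 and -0.31 in transgenic animals, against 0.20, 0.09, -0.13 and 0.12 in wild-type animals, so the genotypes did not overlap (2.84% of all features lay below in this way). Its difference was -0.37 ± 0.10 SE (limma adjusted p = 0.665). The co-receptor Tgfbr3 also had no overlap, at -0.34, -0.42 and -0.23 against 0.52, -0.15, -0.09 and 0.14 (-0.46 ± 0.14 SE, limma adjusted p = 0.677), and its difference was -0.30 ± 0.13 SE in the males alone. On the positive side, the latent TGF-beta binding proteins Ltbp1 and Ltbp2 differed by 0.17 ± 0.16 SE and 0.11 ± 0.12 SE, and Ltbp1 by 0.39 ± 0.14 SE in the males alone (limma adjusted p = 0.643).

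Genes known to respond to TGF-beta went both ways, with 4 of 9 positive, 5 negative, a median of -0.11 (0.00 in the males alone) and 0 past the threshold. Bambi, a pseudoreceptor that dampens TGF-beta signalling in stellate cells, read -0.80, -0.44 and -0.37 in transgenic animals, against 0.39, -0.15, -0.38 and 0.14 in wild-type animals (-0.55 ± 0.20 SE, limma adjusted p = 0.718). In the males alone Bambi differed by -0.28 ± 0.17 SE. The collagen cross-linking enzyme Loxl2 differed by 0.41 ± 0.16 SE (limma adjusted p = 0.718). The matricellular gene Ccn2 read -0.32 in the transgenic female and 0.27 and 1.12 in the transgenic males, against 0.72 in the female labelled wild type and -0.60, -0.55 and 0.00 in the wild-type males. Both transgenic males lay above every wild-type male, as in 11.2% of all features, while the females lay the other way round. The difference was 0.46 ± 0.42 SE over all animals, 1.08 ± 0.29 SE in the males alone (limma adjusted p = 0.453) and -1.03 between the females. Timp1, an inhibitor of matrix proteases, read -0.54, -0.34 and -0.29 in the transgenic female and males, against -1.08, 0.20, 0.10 and 0.62 in the wild-type female and males. Its difference was -0.28 ± 0.24 SE over all animals, -0.62 ± 0.17 SE in the males alone (limma adjusted p = 0.467) and 0.54 between the females. In a test of whether the genotype difference differed between the sexes, neither gene passed (limma adjusted p = 0.373 in Ccn2, and limma adjusted p = 0.405 in Timp1).

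Acta2 read 0.25 in the female and 0.17 and 0.03 in the males with the transgene, against 0.09 in the female labelled wild type and -0.08, 0.08 and -0.33 in the wild-type males. Transgenic male 2 lay among the wild-type animals and the others lay above them. The difference was 0.20 ± 0.12 SE, or 1.15-fold higher (95% interval -0.07 to 0.47, limma adjusted p = 0.774), and it was 0.21 ± 0.15 SE in the males alone. Of 10 other measured contractile and smooth muscle genes, 7 lay higher and 3 lower in the transgenic group (median 0.06), and 0 passed. Myl9, the regulatory light chain of smooth muscle myosin, had the smallest p of this list, at 0.85, 0.54 and 0.48 in transgenic animals, against -0.19, 0.00, 0.28 and -0.41 in wild-type animals. No wild-type animal reached the transgenic values. This held for 2 of the 10 genes, Myl9 and Tagln, beside 3.17% of all features. The difference of Myl9 was 0.70 ± 0.18 SE (limma adjusted p = 0.653). Calponin (Cnn1) differed by 0.23 ± 0.11 SE, with wild-type male 4 at 0.41 like both transgenic males. On the negative side were Cald1 (-0.15 ± 0.26 SE) and Tpm2 (-0.04 ± 0.11 SE), which differed by -0.02 and -0.13 in the males alone.

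Serum response factor is known to act on contractile genes through the CArG box. The promoters of Acta2, the contractile marker, and of Myl9, which had the smallest genotype p of its list, are shown. They were chosen with their matches known, and Cnn1, Tpm1 and Lmod1, which also lay higher in the transgenic group (by 0.23, 0.04 and 0.07), held no match in the same window. Both windows run from 250 bases before to 50 after the gene's start (RefSeq, build GRCm38.p6). Capitals mark a CArG box of 10 bases in which at most 1 of the 6 middle bases, which are A or T in the strict form, is another base. The motif reads alike on both strands, and the windows were searched once, with no overlapping matches in them.
Acta2 (chr19:34255324-34255623, minus strand): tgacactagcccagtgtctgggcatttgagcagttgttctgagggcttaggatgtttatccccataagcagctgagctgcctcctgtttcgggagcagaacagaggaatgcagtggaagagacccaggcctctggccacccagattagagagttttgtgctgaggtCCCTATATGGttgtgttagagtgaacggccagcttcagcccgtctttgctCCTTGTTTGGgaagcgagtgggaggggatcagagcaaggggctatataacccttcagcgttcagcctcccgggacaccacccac
Myl9 (chr2:156775214-156775513, plus strand): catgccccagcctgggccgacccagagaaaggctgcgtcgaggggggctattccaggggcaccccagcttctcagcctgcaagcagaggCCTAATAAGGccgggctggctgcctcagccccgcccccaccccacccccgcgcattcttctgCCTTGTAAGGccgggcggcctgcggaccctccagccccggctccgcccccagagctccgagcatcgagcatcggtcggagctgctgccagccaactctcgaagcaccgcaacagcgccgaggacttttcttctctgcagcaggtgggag
Acta2 held 2 such matches, beginning 84 and 34 bases before the start, and 0 of the strict form. Myl9 held 2, beginning 161 and 99 bases before the start, of which 1 was strict. Matches with at most 1 other base were present in 9.99% of 32817 promoter windows and strict ones in 1.63%. Of the 6 markers whose promoter was searched (Acta2, Des, Lrat, Pdgfra, Reln and Tgfb1), 2 held a match, Acta2 and Lrat, and 0 a strict one. Among the other contractile genes with a sequence, Myl9 was the 1 of 9 with a match. The promoters of Dcn, Lum and Pdgfrb were not searched. Nor were those of the contractile genes Tagln, Myh11 and Actg2, of which Tagln and Myh11 lay higher in the transgenic group (by 0.16 and 0.21).

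Lrat varied least of the 8 markers. Its ratios were 0.13, -0.06 and 0.06 in the transgenic female and males, against 0.22, -0.13, 0.03 and 0.01 in the wild-type female and males. The animals covered a range of 0.34 in all, and the groups lay within each other. The genotype difference was -0.01 ± 0.09 SE, with a 95% interval from -0.22 to 0.21 (limma adjusted p = 0.998), and 0.03 ± 0.11 SE in the males alone.

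Around Lrat, 17 genes of retinoid storage and metabolism were measured, 7 positive and 10 negative with a median of -0.01 (-0.04 in the males alone), and 0 passed. Retsat, which saturates retinol, read -0.43, -0.77 and -0.89 in transgenic animals, against 0.17, -0.27, 0.34 and -0.43 in wild-type animals (-0.68 ± 0.18 SE, limma adjusted p = 0.665). Rdh11, a retinal reductase, was at 1.01, 0.92 and 0.46 against -0.33, 0.57, -0.08 and -0.01 (0.77 ± 0.23 SE, limma adjusted p = 0.677). The retinoic acid hydroxylase Cyp26a1 read 1.13 and 1.15 in transgenic males, against 0.31, -0.02 and 0.32 in their wild-type counterparts. In the females it read -0.19 and, on the array labelled wild type, -0.42 (difference over all animals 0.73 ± 0.16 SE, limma adjusted p = 0.576). Retinol dehydrogenase Rdh10 differed by -0.22 ± 0.10 SE. Retsat, Rdh11 and Cyp26a1 are also hepatocyte genes.

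Reln read -0.04 in the female and -0.37 and -0.53 in the males with the transgene, against 0.26 in the female labelled wild type and -0.21, 0.11 and -0.26 in the wild-type males. Both transgenic males lay below every wild-type male, as in 11.4% of all features, and the transgenic female lay below the wild-type female array but above 2 of the wild-type males. The difference was -0.32 ± 0.12 SE, or 1.25-fold lower (95% interval -0.59 to -0.05, limma adjusted p = 0.718), and -0.33 ± 0.15 SE in the males alone. The reelin pathway list, with the receptors Vldlr and Lrp8 and the adaptors Dab1, Crk and Crkl, had 5 of 5 genes on the negative side (median -0.15) and 0 past the threshold. Of all 22218 features, 11499 were negative. In the males alone 5 of 5 were negative (median -0.19), and between the females 3 of 5 were positive (median 0.06). The lowest p in the reelin list was that of Crk, at -0.31 ± 0.17 SE (limma adjusted p = 0.755), and -0.19 ± 0.19 SE in the males alone. The adaptor Dab1 read -0.20, -0.16 and -0.13 in transgenic animals, against -0.81, 0.45, 0.41 and 0.18, with the female labelled wild type below all others. Its difference was -0.17 ± 0.21 SE over all animals and -0.49 ± 0.12 SE in the males alone (limma adjusted p = 0.398).

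**Figure D1:**
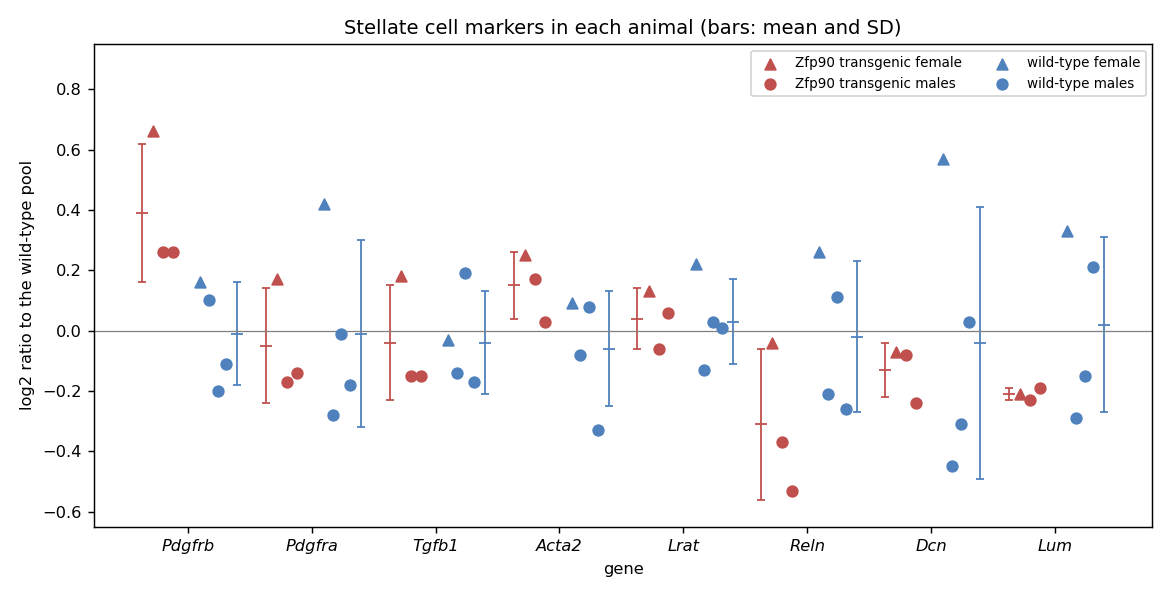
Log2 ratio to the wild-type pool (vertical axis) of the 8 measured markers in each animal, transgenic in red left of wild type in blue, triangles for females and circles for males, with the mean and SD of each group (n = 3 and n = 4). Pdgfrb is the 1 gene whose transgenic animals (0.26 to 0.66) all lie above the wild-type animals (-0.20 to 0.16).

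Dcn and Lum, neighbouring genes on mouse chromosome 10 in the gene order of GRCm38.p6, differed between the wild-type animals more than between the genotypes. Dcn read -0.07, -0.08 and -0.24 in the transgenic female and males, against 0.57 in the female labelled wild type and -0.45, -0.31 and 0.03 in the wild-type males. Its transgenic values lay inside the wild-type range, and the difference was -0.13 ± 0.18 SE (limma adjusted p = 0.935). The direction turned to 0.08 ± 0.16 SE in the males alone.

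Lum read -0.21, -0.23 and -0.19 in the transgenic animals, against 0.33, -0.29, -0.15 and 0.21 in the wild-type animals. The transgenic animals lay within a narrow band (-0.21 ± 0.02, SD, n = 3), while the wild-type animals fell above and below it (0.02 ± 0.29, SD, n = 4). The difference was -0.25 ± 0.15 SE, or 1.19-fold lower (limma adjusted p = 0.771), and -0.13 ± 0.16 SE in the males alone. Over the 7 animals Dcn and Lum had a Pearson correlation of 0.86, and of 0.65 without the female labelled wild type. These correlations are descriptions of 7 and 6 arrays that share 1 pool.

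**Figure D2:**
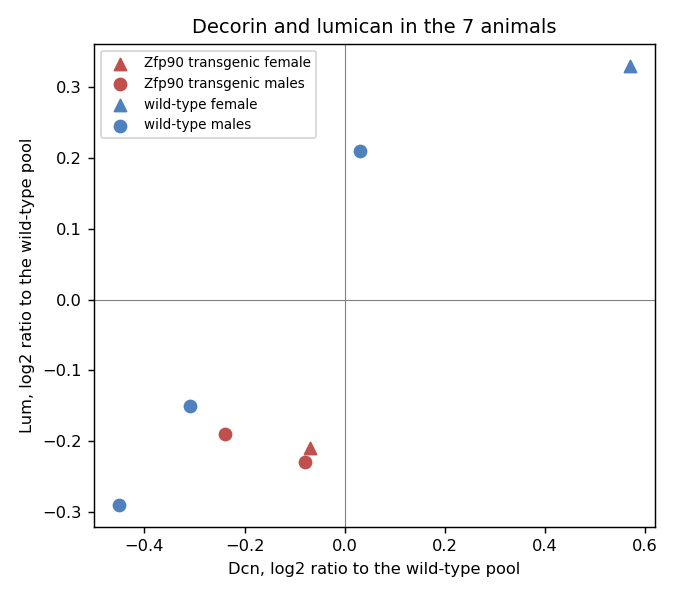
Log2 ratios to the wild-type pool of Dcn (horizontal) and Lum (vertical), 1 point per animal, red for transgenic and blue for wild type, triangles for females. The wild-type female array (0.57 and 0.33) lies highest in both genes and wild-type male 2 (-0.45 and -0.29) lowest in both.

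Of 8 other small leucine-rich proteoglycans, 5 lay higher and 3 lower in the transgenic group (median 0.02), and 0 passed. Biglycan (Bgn), a close relative of decorin, lay between -0.10 and 0.06 with the transgene and between -0.13 and 0.03 without it. Keratocan (Kera), which lies in the same gene cluster as Lum, read 0.08, 0.14 and 0.09 against -0.07, 0.07, 0.08 and -0.10 (0.11 ± 0.09 SE, limma adjusted p = 0.846). Osteomodulin (Omd) had the smallest genotype p of this list, at -2.57, 1.29 and 1.51 in the transgenic female and males against -3.07, 0.21, 0.63 and 0.53 in the wild-type female and males (0.81 ± 0.15 SE, limma adjusted p = 0.475). Fibromodulin (Fmod) and osteoglycin (Ogn) differed by -0.10 ± 0.09 SE and -0.04 ± 0.10 SE, and Ogn by -0.12 in the males alone.

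The 8 markers went both ways between genotypes. Their median difference was -0.04, beside -0.005 over all features, with 2 positive and 6 negative, beside 10719 positive and 11499 negative among all features. In the males alone the split was 4 and 4 with a median of 0.01, beside -0.018 over all features. The median of the 8 markers in an animal ran from -0.15 to 0.15 in the transgenic and from -0.18 to 0.24 in the wild-type group, and the females held the highest value of each.

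**Figure D3:**
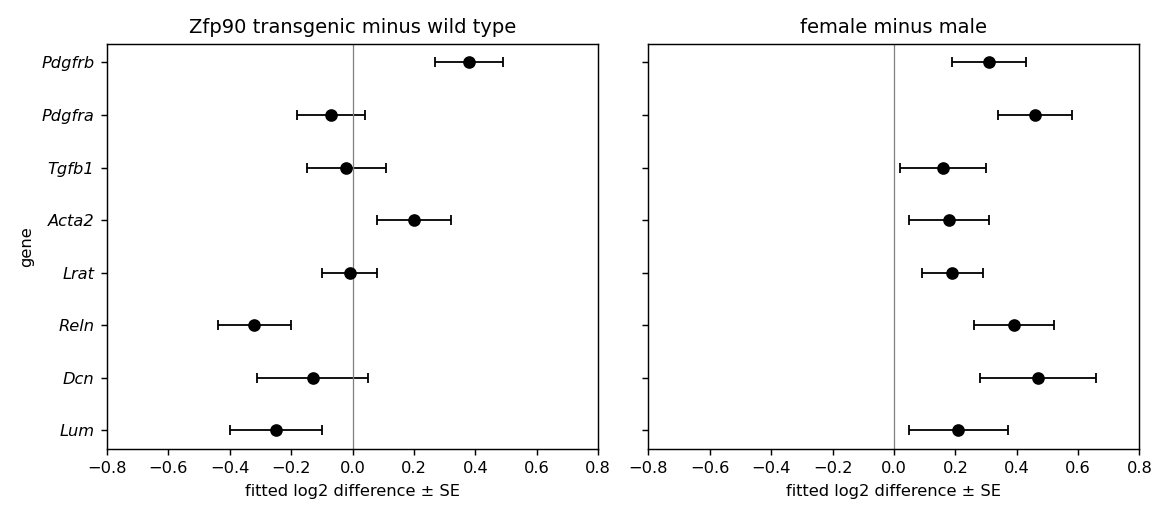
Fitted log2 differences with their SE (horizontal axis) for the 8 measured markers, transgenic minus wild type on the left and female minus male on the right. Genotype differences run from -0.32 (Reln) to 0.38 (Pdgfrb), and all 8 sex differences lie above 0.

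All 8 markers lay higher in the females than in the males in the same model, by 0.16 (Tgfb1) to 0.47 (Dcn). Their median difference was 0.26, beside 0.01 over all features, of which 11618 of 22218 lay higher in females. The 8 markers are read in the same 2 females, so they are not 8 separate observations. After adjustment 0 of the 8 passed, while limma called 0.351% of all features. Unadjusted p was under 0.05 for 4 of them (Pdgfra, Pdgfrb, Reln and Dcn), where 3.65% of all features had such a p with females higher. Pdgfra had the smallest p, at 0.17 and 0.42 in the transgenic and wild-type females, against -0.28 to -0.01 in the 5 males (0.46 ± 0.12 SE, 1.37-fold, limma adjusted p = 0.243). Females lay above all males in 2 markers, Pdgfra and Lrat, and in 6.04% of all features. Lrat differed by 0.19 ± 0.10 SE (limma adjusted p = 0.646), Reln by 0.39 ± 0.13 SE (0.383 as adjusted p in limma) and Pdgfrb by 0.31 ± 0.12 SE (0.470 in the same way).

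The sex differences of Dcn, Lum and Tgfb1 came mostly with 1 female array each. Dcn differed by 0.47 ± 0.19 SE over all animals, by 0.09 without the female labelled wild type and by 0.81 without the transgenic female. Lum differed by 0.21 ± 0.16 SE, and by 0.00 and 0.40 in the same fits. Tgfb1 went the other way, with 0.16 ± 0.14 SE over all animals, 0.33 without the female labelled wild type and 0.01 without the transgenic female. The other 5 markers lay between 0.13 and 0.57 in these fits. The median over the 8 markers was 0.24 and 0.32 in these fits. With 1 female per genotype, sex and single animal cannot be told apart within a genotype.

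Most of the Kupffer cell and sinusoidal endothelial markers also lay higher in the females. Kupffer cell markers had 10 of 10 genes higher in females (median difference 0.92), with list medians from 0.48 to 0.91 in the 2 females, against -0.80 to 0.36 in the 5 males. Their lead by p was the scavenger receptor Marco at 1.15 and 1.29 in the females, against -1.84 to 0.10 in the males (2.05 ± 0.36 SE, limma adjusted p = 0.093). Sinusoidal endothelial markers had 9 of 10 genes higher in females (median 0.23), with list medians from 0.08 to 0.11 in the females, against -0.22 to 0.14 in the males. Hepatocyte markers had 4 of 9 higher and a median of -0.10. The part of these cells in the sex difference of the stellate markers was not tested, and ratios to a pool do not show which markers are near background.

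Of 21 other stellate cell and pericyte markers, 18 lay higher in females (median 0.07) and 0 passed. The growth factor Gdf2 had the smallest p there, at 0.41 and 0.18 in the females, against -0.23 to 0.17 in the males (0.32 ± 0.12 SE, limma adjusted p = 0.467). In the TGF-beta list the receptor Tgfbr2 read 0.25 and 0.41 in the females, against -0.43 to 0.01 in the males (0.52 ± 0.13 SE, limma adjusted p = 0.243). Among all genes of the lists, 2 passed for sex. Omd was lower in females (difference -3.74 ± 0.16 SE, limma adjusted p = 0.000114), and the reelin receptor Vldlr was higher by 1.19 ± 0.13 SE (limma adjusted p = 0.0132), at 0.60 and 0.80 in the females against -0.72 to -0.32 in the males.

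The genotype difference did not pass a test for a difference between the sexes in any of the 8 markers, where limma called 0.072% of all features. Dcn came nearest, with -0.64 between the transgenic and wild-type females and 0.08 between the males (interaction -0.72 ± 0.30 SE, limma adjusted p = 0.595). Lum followed in size, with -0.53 between the females and -0.13 between the males (-0.40 ± 0.30 SE, limma adjusted p = 0.746). The spread in this fit came from the males alone.

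The 21 other stellate cell and pericyte markers were split evenly between genotypes, with 11 positive and 10 negative, a median of 0.00 and 0 past the threshold. Hand2, a transcription factor of stellate cells, read 0.22, 0.30 and 0.31 in the transgenic animals, against -0.05, 0.09, -0.16 and 0.03 in the wild-type animals, with no overlap (0.31 ± 0.10 SE, limma adjusted p = 0.678). Lhx2, a factor that keeps stellate cells quiescent in mice, had no overlap in the other direction, at -0.16, -0.41 and -0.16 against 0.29, -0.08, -0.14 and 0.10 (-0.30 ± 0.11 SE, limma adjusted p = 0.718). Of the 21 genes, 1 lay above without overlap (Hand2) and 2 lay below (Lhx2 and Tcf21). Among all features 3.17% lay above and 2.84% below in this way. The filament protein vimentin (Vim) read 0.28, 0.60 and 0.55 against 0.72, -0.30, -0.44 and -0.16 (0.49 ± 0.24 SE, limma adjusted p = 0.742). Only the female labelled wild type broke the order in Vim, which differed by 0.88 ± 0.12 SE in the males alone (limma adjusted p = 0.139) and by -0.44 between the females. The matrix protein Ecm1 differed by -0.28 ± 0.14 SE, and by -0.11 ± 0.13 SE in the males alone.

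Collagen genes, which share the matrix function of Dcn and Lum, had 5 of 10 measured members on each side and a median of 0.02. Col1a1 read 0.36, 0.40 and 0.27 in transgenic animals, against 0.29, 0.06, 0.01 and -0.16 (0.28 ± 0.11 SE, limma adjusted p = 0.720), and Col5a1 differed by 0.35 ± 0.12 SE (limma adjusted p = 0.718). Col6a2 and Col3a1 differed by -0.17 ± 0.20 SE and -0.13 ± 0.10 SE, and Col6a2 by -0.47 ± 0.13 SE in the males alone (limma adjusted p = 0.453).

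**Figure D4:**
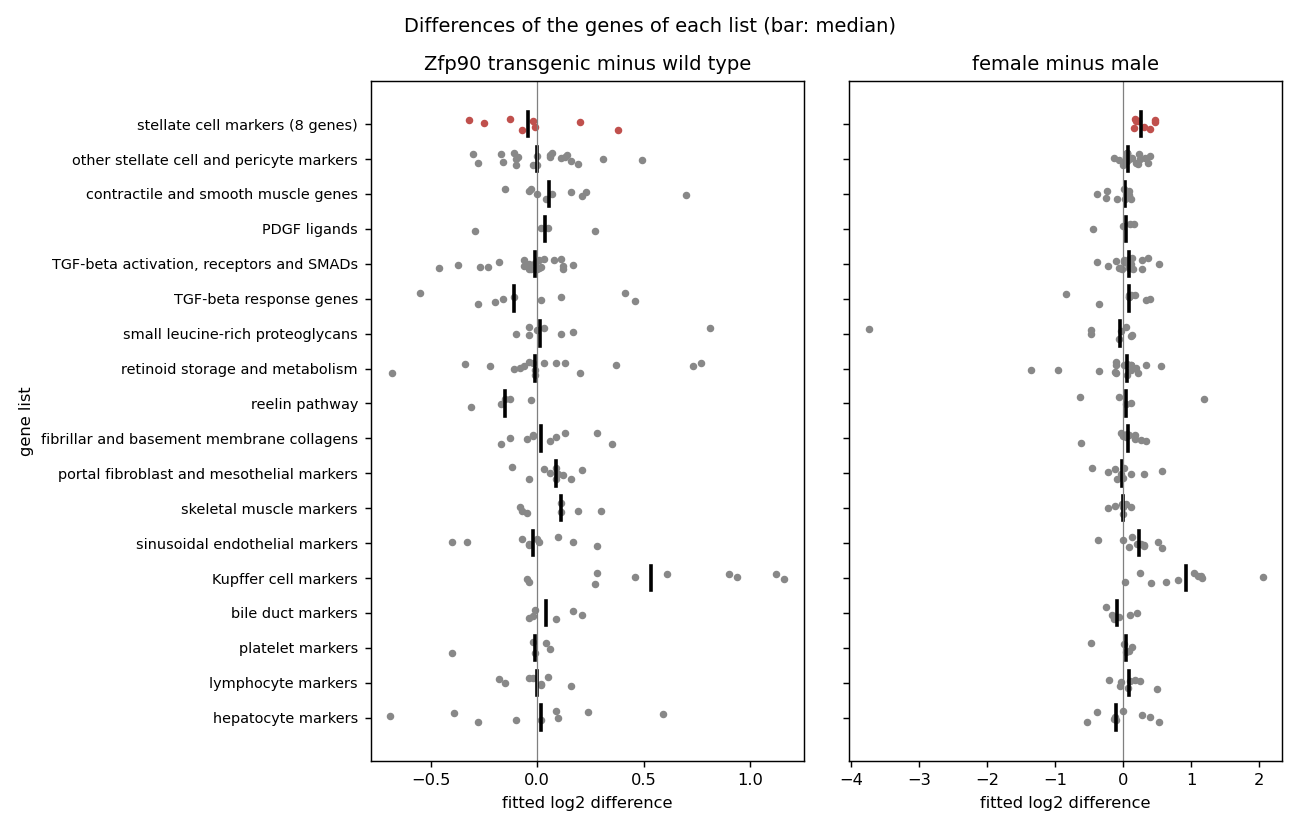
Fitted log2 differences (horizontal axis) of every measured gene of the lists (rows), transgenic minus wild type on the left and female minus male on the right, with a bar at each list's median and the stellate markers in red. The markers have medians of -0.04 and 0.26, and the Kupffer cell list has the highest medians, 0.53 and 0.92.

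Cells that could share the stellate markers gave the following medians between genotypes, with 0 genes past the threshold in each list. Portal fibroblast and mesothelial markers had 8 of 10 genes positive and a median of 0.09 (0.09 in the males alone and -0.05 between the females). Fibulin Fbln2 had the largest difference (0.21 ± 0.21 SE, and 0.48 ± 0.17 SE in the males alone). The smallest p of that list was on the negative side, in Entpd2 (-0.12 ± 0.09 SE, limma adjusted p = 0.832). Skeletal muscle markers had 4 of 7 positive and a median of 0.11 (0.03 in the males alone), with the actin Acta1 at 0.31, 0.27 and 0.30 in transgenic animals, against -0.02, 0.05, 0.09 and -0.13 in wild-type animals (0.30 ± 0.09 SE, limma adjusted p = 0.677). Acta1 is a close relative of Acta2, and the sources used here do not say whether its 2 probes, which were averaged, also read other actins.

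Sinusoidal endothelial markers had 5 of 10 positive (median -0.02) and bile duct markers 3 of 6 (0.04). Platelet markers, from a source of Tgfb1 protein and of PDGF, had 2 of 5 positive (-0.01), lymphocyte markers 4 of 8 (0.00) and hepatocyte markers 5 of 9 (0.02). In the males alone the medians of these 5 lists lay between -0.04 and 0.08. In the hepatocyte list unadjusted limma p was under 0.05 for 3 of 9 genes, beside 6.91% of all features. They were Cps1 (0.59 ± 0.11 SE, limma adjusted p = 0.475), Pck1 (-0.69 ± 0.23 SE, limma adjusted p = 0.708) and Serpina1a (-0.28 ± 0.12 SE, limma adjusted p = 0.722). Kupffer cell markers had 8 of 10 positive and a median of 0.53. In the males alone 9 of 10 were positive with a median of 0.90, and between the females 3 of 10 with a median of -0.29. Marco differed by 1.12 ± 0.33 SE over all animals, by 1.65 ± 0.17 SE in the males alone (limma adjusted p = 0.0789) and by -0.13 between the females. Their list medians ran from 0.21 to 0.48 in the transgenic group and from -0.80 to 0.91 in the wild-type group, where the female labelled wild type held the highest value. Cd163, a scavenger receptor, had the smallest genotype p in that list (1.16 ± 0.19 SE, limma adjusted p = 0.475).

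The 8 markers did not follow 1 common pattern over the 7 animals. Of the 28 pairs, 23 had a positive Pearson correlation, with a median of 0.48 and a range from -0.40 (Lum and Acta2) to 0.93 (Pdgfra and Lrat). Without the female labelled wild type the median was 0.26. Pdgfra and Lrat kept a correlation of 0.86 over those 6 arrays.

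Genes most like each marker were taken as the 3 named genes with the highest Pearson correlation over the 7 arrays, as a description. For Pdgfrb these were Gstt1 (0.991), Arl3 and Echdc3, for Acta2 Fut7 (0.992), Csf2ra and Olfr1441, and for Pdgfra Cant1 (0.992), Htr5b and St3gal6. For Lrat they were Klf2 (0.988), Tcn2 and Glrx3, and for Reln Lmbrd1 (0.984), Enpp6 and Prkg1. Dcn was followed most closely by Ccdc160 (0.981), Esam and Tmem204, and Lum by Tm4sf1 (0.993), Dmac2l and Fcgr2b. Esam, an endothelial adhesion molecule, and Fcgr2b, a receptor of sinusoidal endothelium, are known from endothelial cells. With 7 arrays such values are common: a named gene had a median of 101 others above 0.9.

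Tgfb1 had the highest such count of the 8 markers, with 659 named genes (4.00%) above 0.9, beginning with Calr4 (0.994), Aqp12 and Cryba4, and 91.5% of named genes had as many or fewer. The crystallin Cryba4, a lens protein, read 0.24, -0.10 and -0.13 in the transgenic female and males, against 0.05, -0.08, 0.20 and -0.13 in the wild-type female and males, nearly the values of Tgfb1. The other markers had between 48 (Lrat) and 211 (Acta2) such genes.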

How the data were processed

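Liver RNA of 7 mice was measured on 2-colour arrays. For each of 23574 probes the authors deposited a log10 ratio per animal. Its log10 scale was settled from the values, which end at exactly -2 and 2. Dye swaps were used per the labels; how they were combined, and the background correction, normalization and centring, do not appear in the sources used here. How far a probe lies over background is unknown, and precision is limited by the number of arrays.

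Multiplying by 3.32 gave log2 ratios. Platform annotation gave 17824 probes 1 gene symbol, 50 several and 5700 none, with 0 symbols updated through gene numbers of GRCm38.p6. Probes of a gene were averaged, giving 22218 features. Using lmFit and eBayes of limma 3.58.1 in R 4.3.3, models were fitted with genotype and sex, and separately with their interaction, with Benjamini-Hochberg adjustment over all features, two-sided, called at 0.05. The fit was tested on simulated data. Each p-value sets a difference against the residual spread between these animals, which eBayes moderates over all features.

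The members and lists were chosen with earlier results of these data known. Genes named in the text are all measured members, Zfp90, in each list up to 2 genes per direction by genotype p and 1 per direction by sex p, list genes past the threshold, and the 3 genes most like each member. Kdm5d was added after its values were seen. Alternatives were median centring, quantile normalization, single probes, the 50% of features with the largest ratios, named genes only, a robust variance model, models without sex or genotype, males alone, and leaving out each animal.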

Additional observations from a re-analysis of the deposited data

Results flagged for a closer look

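Within the 4 wild-type animals, 1 animal stood apart from the others by Dixon's test in 6 of 90 genes examined. Chance marks about 1 in 20 such groups where genes are not chosen by their values. Most of the 90 genes were chosen by genotype or sex p in these same arrays, so that rate is no measure for this count. None of the 8 stellate markers was among the 6. The female labelled wild type stood apart in 4: Omd at -3.07, the endothelial receptor Lyve1 at -0.65, Marco at 1.29 and Vldlr at 0.80. This animal was the 1 female of the group, so a sex difference also sets it apart, which the chance rate leaves out. The transgenic female read -2.57 in Omd, 1.15 in Marco and 0.60 in Vldlr, near the wild-type female, and Omd and Vldlr passed for sex in limma. In Lyve1 the transgenic female read 0.36, unlike the wild-type female. Wild-type male 3 stood apart in Cd4 at 0.26 and Tpm2 at 0.16.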

How the results depend on the processing

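No paired analysis was made, since each array holds a different animal and the sample titles name no pairs. Adjusted p for the 8 markers stayed above the threshold under every alternative run, with a lowest value of 0.21 for genotype (Pdgfrb) and 0.121 for sex (Reln). The genotype differences of Acta2, Pdgfrb, Reln and Lum kept their direction throughout, with ranges of 0.12 to 0.26, 0.32 to 0.45, -0.37 to -0.24 and -0.34 to -0.13. That of Pdgfra ran from -0.12 to 0.00 (reached in males alone). Lrat, Dcn and Tgfb1 changed sign. Lrat read 0.00 after median centring, 0.01 after quantile normalization and without the sex term, 0.03 in males alone, and -0.05 to 0.03 with single animals left out. Dcn read 0.08 in males alone and -0.25 to 0.08 with animals left out, and Tgfb1 -0.11 to 0.07 with animals left out. The count of features called for genotype was 7 in males alone, 4 among the 50% with the largest ratios, and 0 to 7 with animals left out (7 without either female). For sex it was 49 after quantile normalization, 162 among that 50%, and 36 to 254 with animals left out (36 with the wild-type female omitted, 254 with the transgenic one omitted, and 39, 48 and 45 without wild-type males 2 and 4 and transgenic male 2). For the interaction it was 6 after quantile normalization, 7 among named genes, 57 among that 50%, and 4 to 77 with animals left out (4 when wild-type male 2 was dropped, 77 when wild-type male 4 was), and it could not be fitted without a female. Without scanner intensities, small ratios of dim and of bright probes cannot be told apart.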
